A study of Mus musculus with 48 samples.

Results

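Cirbp and Rbm3 encode the cold-inducible RNA-binding proteins CIRBP and RBM3, and their mRNA and ribosome footprint levels were followed over the day in mouse kidney. Both genes were chosen by name as the cold-inducible pair among the 12423 genes listed in both assays, and both were among the 11863 genes tested. The tissue came from male C57BL/6JRj mice aged 11 to 12 weeks that carried no transgene or mutation, had been entrained to 12 h of light and 12 h of dark for 2 weeks and fed freely. Kidneys were collected every 2 h over 2 daily cycles, at 12 timepoints from ZT00 (lights-on) through ZT12 (lights-off) to ZT22. Each of the 24 samples (2 replicates per timepoint) was a pool of kidney lysates of 2 mice. The sample labels do not say which cycle a replicate came from, so differences between replicates may include differences between the cycles. From each pool, RNA-seq measured transcript abundance, and RPF-seq measured the mRNA fragments that ribosomes protect from nuclease. The values are RPKM, that is, reads on the coding sequence (CDS) scaled for its length and for library size, and translation efficiency (TE) is the RPF-seq RPKM divided by the RNA-seq RPKM of the same pool.

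CIRBP and RBM3 are small proteins with an RNA recognition motif followed by a glycine-rich stretch. Mild cooling raises them and warming lowers them, opposite to the heat shock chaperones, which bind unfolded proteins and are raised by heat. Mice rest in the light and are active in the dark, when their body temperature is higher, and CIRBP is known to bind the mRNAs of clock components, among them Clock. Body temperature was not recorded in the data analysed here, and temperature, feeding, activity and light cannot be told apart in this design.

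The Cirbp gene (ENSMUSG00000045193) lies at chr10:80165985-80172786 on the plus strand of GRCm38, and its longest CDS (transcript Cirbp-202) has 516 nt in 6 coding exons. The stretch upstream of the Cirbp-202 start, chr10:80167589-80167777 on the plus strand, is shown because it holds the sequence through which mild cold is known to raise Cirbp, bound by the factor SP1. It was taken from a RefSeq promoter window on GRCm38.p6, and it lies in the first intron of transcript Cirbp-207 and before the start of every other Cirbp transcript in GENCODE vM21. Capitals mark the mild cold response element TCCCCGCC, GC boxes (GGGCGG) and CCAAT boxes (CCAAT), all searched on both strands.
Cirbp upstream stretch: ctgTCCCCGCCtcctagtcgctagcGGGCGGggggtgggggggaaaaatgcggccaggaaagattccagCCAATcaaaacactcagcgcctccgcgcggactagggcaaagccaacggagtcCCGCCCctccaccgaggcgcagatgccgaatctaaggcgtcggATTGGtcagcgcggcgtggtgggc
These 189 bases hold 1 mild cold response element at chr10:80167592-80167599, 2 GC boxes and 2 CCAAT boxes. Of all 32851 promoter windows in the RefSeq table, 5.38% hold the mild cold response element, 35.7% a GC box and 37.4% a CCAAT box, and the GC box does not overlap the cold element here. The 2 Cirbp windows in the table hold no E-box (CACGTG, in 7.15% of windows), no D-box (TTANGTAA, 2.32%), no AGGTCA motif (16.3%) and no GAANNTTC heat shock core (7.86%), all read as letters in these windows only.

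Rbm3 (ENSMUSG00000031167) lies at chrX:8138975-8145880 on the minus strand, and the longest CDS in GENCODE vM21 (Rbm3-201) has 462 nt in 5 coding exons. Since TE was followed for both genes, the 12 bases on the 5′ side of the start codon (capitals) and the 9 on its 3′ side are shown for the transcripts with the longest CDS.
Cirbp-202: tcagcggctgccATGgcatcagat
Rbm3-201: ttgccttctgccATGtcgtctgaa
Both have G at the position 3 bases before the start codon, where 86.5% of 11418 genes tested have A or G. Cirbp also has G directly after the start codon, as 52.9% of these genes do, whereas Rbm3 has T there. Neither transcript has an ATG in its 5′ leader, which is 145 nt long in Cirbp-202 and 75 nt in Rbm3-201, and 48.9% of the genes share this feature.

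The values of both genes resolved into whole reads in every library (tolerance 0.02 reads), which gave the depth behind each of them. Cirbp rested on 43 to 505 reads per RNA-seq library (median 173) and on 194 to 1353 per RPF-seq library (median 557), and Rbm3 on 423 to 2166 (median 740) and 800 to 2867 (median 1396). Counting error alone was therefore at most 15.3% for Cirbp and at most 4.86% for Rbm3. Rbm3 has several processed pseudogenes: 94.1% of all 26-nt windows of its CDS, and 85.1% of all 60-nt windows, also occur in other annotated genes, among them Rbm3-ps, Gm10156 and Gm13624, against 0 of the Cirbp windows. None of these copies is listed in the tables, so reads of Rbm3 and of its copies may have been split or merged, and its RPKM level is uncertain. The length behind its values was 519 nt, longer than the 462 nt of Rbm3-201, while that of Cirbp was 516 nt. This length is the same in both assays and cancels in TE. The share of windows found in other genes depends on read length, and footprints are shorter than RNA-seq fragments, so an effect of the copies need not cancel in the TE of Rbm3 and was not tested. The antisense gene Rbm3os overlaps Rbm3 but none of its coding bases.

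Across the series, library size was recovered from the steps between values. It is the size after edgeR scaling, so it is not a plain number of reads. It was 9.86 to 33.6 M (M, mega; median 16.5 M) in RNA-seq and 15.6 to 35.01 M (median 22.2 M) in RPF-seq. This scaled size was larger in the light than in the dark, with medians of 18.8 and 13.4 M in RNA-seq. In RPF-seq the medians were 26.1 and 20.2 M. The second RPF-seq library of ZT04 stood apart with 125 genes listed at 0, against at most 14 in any other library. Clock genes peaked in RNA-seq at ZT22.5 (Arntl), ZT7.52 (Nr1d1), ZT10.5 (Dbp) and ZT14.7 (Per2), which orders the time labels. The tubule markers that define kidney were high: Slc34a1 averaged 2387 RPKM and Umod 2607 RPKM in RNA-seq, whereas none of the 3 adrenal cortex and 2 skeletal muscle markers was listed.

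Cirbp mRNA was high in the second part of the light phase and low around the middle of the dark phase. It stood at 9.83 and 12.2 RPKM in the replicates of ZT00, 20.8 and 24.7 at ZT02, 29.0 and 28.9 at ZT04, and 34.3 and 30.5 at ZT06. It then reached 34.3 and 39.7 RPKM at ZT08 and its highest values, 36.0 and 44.0, at ZT10, before 29.1 and 34.1 at lights-off (ZT12). In the dark it stood at 16.01 and 13.95 RPKM at ZT14, 13.2 and 11.2 at ZT16, 13.9 and 7.91 at ZT18, 13.5 and 15.5 at ZT20, and 21.5 and 23.3 at ZT22. All 14 pools from ZT02 to ZT12 and at ZT22 were thus higher than the 10 other pools. The timepoint means spanned 3.66-fold, from 10.9 RPKM at ZT18 to 40.0 at ZT10. Ordered by level, 6 of the 11 neighbouring timepoint pairs overlapped in their replicates, so that ZT10 was not resolved from ZT08, nor ZT18 from ZT00.

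A 24-h cosine fitted to log2(RPKM + 0.1) gave Cirbp mRNA a peak-to-trough fold of 3.10 (1.63 ± 0.21 on the log2 scale, SE, n = 24) with its peak at ZT7.41 ± 0.50 h. The rhythm passed the test (limma moderated F, Benjamini-Hochberg adjusted p = 5.6e-06 over all genes tested), and its fitted fold was the 42nd largest of 11863. Under the same call, an FDR under 0.05 with a fitted fold of at least 1.5, 10.2% of all genes were rhythmic in RNA-seq, and both Cirbp and Rbm3 were among them. The cosine gave an R2 of 0.70 for Cirbp, and adding a 12-h component raised it to 0.79 without passing the test (log2 peak-to-trough of the added component 0.59 ± 0.19, adjusted p = 0.19, where 0.598% of genes passed).

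**Figure D1:**
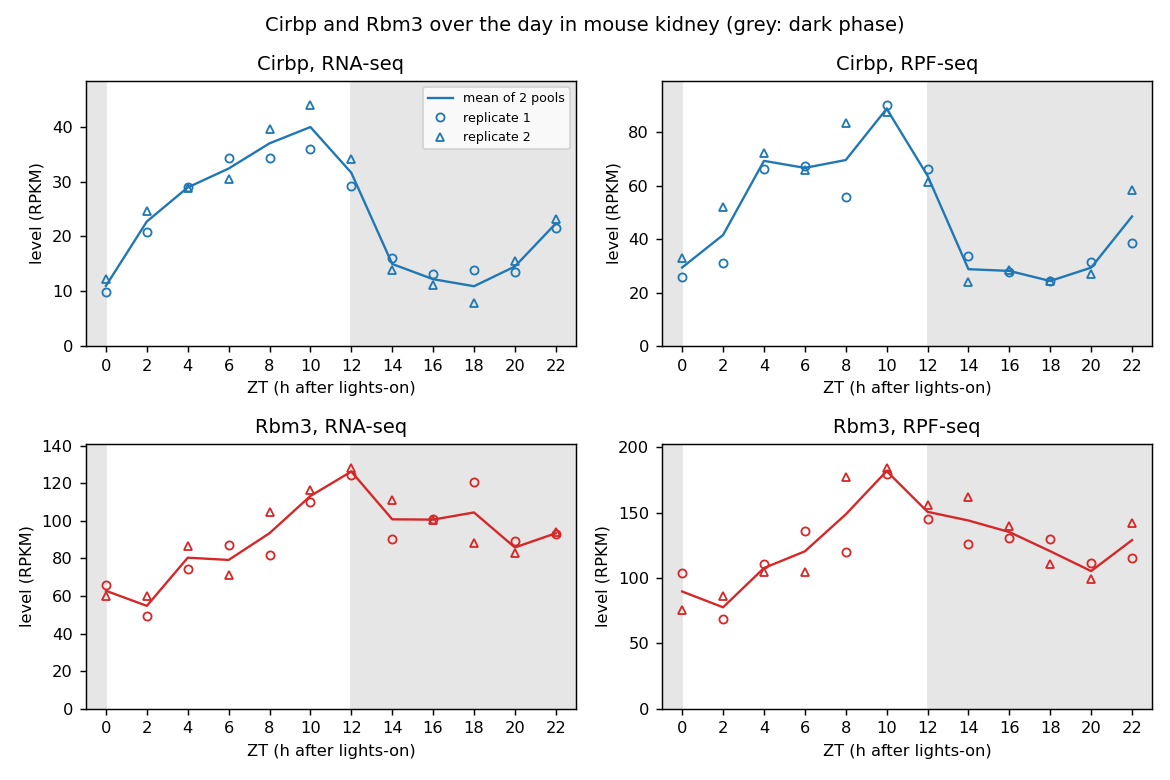
RNA-seq (left) and RPF-seq (right) levels in RPKM of Cirbp (top) and Rbm3 (bottom) against ZT in hours; circles and triangles are the replicate pools, lines join their means and grey marks darkness. The mean of Cirbp peaked at ZT10 in both assays and fell between ZT12 and ZT14. The mean of Rbm3 was lowest at ZT02 and highest at ZT12 in RNA-seq and at ZT10 in RPF-seq.

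Cirbp mRNA changed between single timepoints around both light transitions. Of the 12 steps between adjacent timepoints, 3 passed the test over all genes and steps (limma). Across all genes, 0.0815% of RNA-seq steps were called upward and 0.0443% downward. From ZT12 to ZT14 the level fell by 1.07 on the log2 scale (SE 0.20, adjusted p = 0.041), a step that 0.0843% of genes shared in this direction. From ZT22 to ZT00 it fell by 1.02 (adjusted p = 0.0499, at the edge of the threshold; 0.143% of genes called), and from ZT00 to ZT02 it rose by 1.04 (adjusted p = 0.045; 0.0337% of genes called). ZT00 thus had a mean of 11.0 RPKM between 22.4 at ZT22 and 22.7 at ZT02, and both of its pools were lower than those of ZT22 and ZT02, the lowest of which was 20.8 RPKM. Each step rests on 2 pools against 2, and with the replicate number as a block the steps into and out of ZT00 were not called (adjusted p = 0.057 and 0.052), leaving 1 called step of 3.

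Cirbp footprints followed a similar course at about 2.16 times the mRNA value. In RPF-seq the replicates stood at 25.9 and 32.9 RPKM at ZT00, 31.0 and 52.2 at ZT02, 66.2 and 72.3 at ZT04, 67.5 and 65.8 at ZT06, and 55.6 and 83.6 at ZT08. They reached 90.1 and 87.4 RPKM at ZT10, the only timepoint above all others, and still 66.1 and 61.4 at ZT12. From ZT14 to ZT20 all 8 pools lay between 23.8 and 33.7 RPKM, and at ZT22 they stood at 38.6 and 58.4. The replicates of ZT02, ZT08 and ZT22 were far apart, and 8 of the 11 neighbours in the order of levels overlapped.

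The footprint rhythm of Cirbp had a fold of 2.87 (1.52 ± 0.21 on the log2 scale, SE, n = 24) and peaked at ZT7.22 ± 0.53 h. It passed the test (limma, adjusted p = 3.2e-05) and its fold ranked 60th of 11863, where 7.58% of all genes were rhythmic in RPF-seq, Rbm3 included. No step between adjacent timepoints was called for Cirbp in RPF-seq by limma, although 4 of 12 had an unadjusted p under 0.05, a share not counted over all genes. Over all genes, 0.014% of RPF-seq steps were called upward and 0.0126% downward. The largest of these steps was again the one from ZT12 to ZT14, which gave a log2 difference of -1.17 (SE 0.23, adjusted p = 0.12). The dip at ZT00 was smaller in footprints, with log2 differences of -0.70 ± 0.23 into ZT00 and 0.46 ± 0.23 out of it (SE), neither of which passed the test (adjusted p = 0.41 and 0.62, limma).

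Rbm3 mRNA was lowest at lights-on and ZT02 and highest at lights-off. The replicates stood at 65.8 and 59.8 RPKM at ZT00, 49.6 and 59.98 at ZT02, 74.1 and 86.7 at ZT04, 87.3 and 71.1 at ZT06, and 82.0 and 104.9 at ZT08. They rose to 110.3 and 116.2 RPKM at ZT10 and 124.3 and 128.2 at ZT12, the only timepoint above all others. Through the dark they stayed between 82.7 RPKM at ZT20 and 120.9 at ZT18, without the drop that Cirbp showed after lights-off. From ZT12 to ZT14 the log2 difference of Rbm3 was -0.33 ± 0.15 (SE, adjusted p = 0.50, limma). The timepoint means spanned 2.31-fold, from 54.8 RPKM at ZT02 to 126.3 at ZT12. Ordered by level, 8 of the 11 neighbouring timepoint pairs overlapped in their replicates, so that ZT02 was not resolved from ZT00.

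Rbm3 was rhythmic in both assays with nearly equal fitted folds. In RNA-seq the fold was 1.74 (0.80 ± 0.12 on the log2 scale, SE, n = 24; adjusted p = 2.9e-05, limma) with a peak at ZT13.4 ± 0.56 h, and it ranked 511th of 11863. In RPF-seq the fold was 1.73 (0.79 ± 0.13; adjusted p = 2.7e-04) with a peak at ZT12.1 ± 0.64 h, and it ranked 499th. None of the 12 steps between timepoints was called in either assay by limma. An unadjusted p under 0.05 was found for 3 in RNA-seq and 2 in RPF-seq, shares not counted over all genes. The 12-h component did not pass the test for Rbm3 in RNA-seq (adjusted p = 0.32) or in RPF-seq (adjusted p = 0.28, where 0.7% of genes passed).

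Rbm3 footprints stood at 104.0 and 75.3 RPKM at ZT00, 68.8 and 86.4 at ZT02, 110.9 and 104.3 at ZT04, 135.9 and 104.8 at ZT06, and 119.8 and 177.4 at ZT08. They were highest at ZT10, with 179.2 and 184.2 RPKM, and stood at 145.4 and 155.7 at ZT12, where the mRNA was highest. In the remaining dark phase they ranged from 99.0 RPKM at ZT20 to 162.0 at ZT14. Except for ZT10 and ZT12, every timepoint overlapped its neighbour in the order of levels, 10 of 11 pairs in all. Neighbouring levels within the dark phase were thus not resolved. Both pools of ZT20 (111.5 and 99.0 RPKM) still lay below all pools of ZT12, ZT14, ZT16 and ZT22.

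The replicate spread set the precision of these profiles more than the number of reads did. Expressed as an SD on the log2 scale, replicates of one timepoint differed by 0.22 for Cirbp in RNA-seq, where counting error alone gives 0.12, and by 0.27 in RPF-seq, where it gives 0.068. For Rbm3 the values were 0.17 against 0.054 in RNA-seq and 0.22 against 0.039 in RPF-seq. The largest gap between replicates was 1.76-fold, for Cirbp mRNA at ZT18, where the lower value rested on 43 reads.

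The comparison of the light phase, when mice rest, with the dark phase, when they are active, put Cirbp higher in the light. In RNA-seq, Cirbp ranged from 9.83 to 44.0 RPKM (median 29.7) in the 12 light pools (ZT00 to ZT10) and from 7.91 to 34.1 (median 14.7) in the 12 dark pools (ZT12 to ZT22). The phases overlapped: the light phase includes the low values at ZT00 and the dark phase the high values at ZT12. Apart from these timepoints, replicate 1 of ZT02 (20.8 RPKM) also lay below both ZT22 pools (21.5 and 23.3 RPKM). The light-phase level was 1.61-fold higher (log2 difference 0.68 ± 0.23, SE; adjusted p = 0.030, limma), a call that 1.01% of genes made in this direction. In RPF-seq, Cirbp ranged from 25.9 to 90.1 RPKM (median 66.0) in the light and from 23.8 to 66.1 (median 30.1) in the dark, and was 1.63-fold higher in the light (0.71 ± 0.22; adjusted p = 0.038; 0.514% of genes called). With ZT12 counted as light and ZT00 as dark, the log2 differences were 1.19 and 1.08. Without the ZT04 replicate 2 pool the RPF-seq call was lost (0.68, adjusted p = 0.057), and with either replicate series alone both calls were lost.

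Rbm3 differed in the other direction, by less. Its mRNA ranged from 49.6 to 116.2 RPKM (median 78.1) in the light and from 82.7 to 128.2 (median 97.2) in the dark. Its light minus dark log2 difference in RNA-seq was -0.37 ± 0.12 (SE), which passed the FDR (adjusted p = 0.020, limma) but not the fold limit of 1.5, and 11.3% of genes were higher in the dark at this FDR alone. In RPF-seq it ranged from 68.8 to 184.2 RPKM (median 107.9) in the light and from 99.0 to 162.0 (median 130.2) in the dark. The RPF-seq difference of -0.17 ± 0.14 did not pass the test (adjusted p = 0.46), where 4.56% of genes were higher in the dark at this FDR alone. With ZT12 counted as light and ZT00 as dark, the RNA-seq difference was -0.03 (adjusted p = 0.89), and with both timepoints left out it was -0.24 (adjusted p = 0.13). It did not pass the FDR without replicate 1 (-0.31, adjusted p = 0.32) or without replicate 2 (-0.43, adjusted p = 0.083) either.

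The TE of Cirbp was high and did not pass the test for a rhythm. It averaged 2.16 ± 0.39 (SD, n = 24 pools) and ranged from 1.49 at ZT02 to 3.06 at ZT18, a pool in which the mRNA value rested on 43 reads. Taken as the ratio of daily means, 2.11, it was at or above the TE of 96.5% of the genes tested, whose median was 0.96. Its fitted fold over the day was 1.101 (0.14 ± 0.15 on the log2 scale, SE), and the rhythm was not called (adjusted p = 0.75, limma) where 3.74% of all genes had a TE rhythm. All 11 neighbouring timepoints in the order of TE overlapped. In the light phase TE was 2.17 ± 0.38 and in the dark phase 2.14 ± 0.42 (SD, n = 12 each), with a log2 difference of 0.02 and a 95% interval of -0.18 to 0.23.

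**Figure D2:**
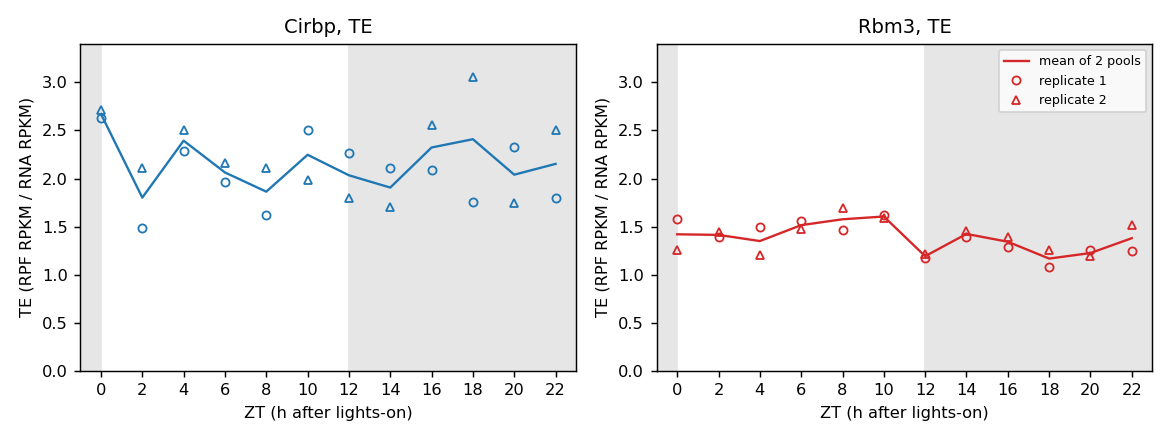
TE (RPF-seq RPKM over RNA-seq RPKM of the same pool) of Cirbp (left) and Rbm3 (right) against ZT in hours, with circles and triangles for the replicate pools, lines through their means and grey for darkness. Cirbp scattered between 1.49 and 3.06, and Rbm3 lay between 1.08 and 1.69 with its highest mean at ZT10 and its lowest at ZT18.

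The TE of Rbm3 was lower and less scattered, and its median was higher in the light, for a CDS that is mostly shared with pseudogene copies. It averaged 1.38 ± 0.17 (SD, n = 24 pools), and its ratio of daily means was at or above that of 77.2% of genes. The replicates gave 1.56 and 1.47 at ZT06, 1.46 and 1.69 at ZT08, and 1.63 and 1.58 at ZT10, then 1.17 and 1.21 at ZT12. Between ZT10 and ZT12 the mRNA mean went from 113.2 to 126.3 RPKM while the footprint mean went from 181.7 to 150.6 RPKM. The lowest mean, 1.17, was at ZT18 (1.08 and 1.26).

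The 12 light pools of Rbm3 ranged from 1.20 to 1.69 in TE (median 1.49) and the 12 dark pools from 1.08 to 1.51 (median 1.26), so the phases overlapped. The light minus dark log2 difference of TE was 0.20 ± 0.061 (SE; 1.15-fold), which passed the FDR (adjusted p = 0.036, limma) but not the fold limit, and 4.48% of genes were higher in the light at this FDR alone. It did not pass without replicate 1 (0.10, adjusted p = 0.67) or without replicate 2 (0.30, adjusted p = 0.058). The 24-h rhythm of TE had a fold of 1.21 (0.27 ± 0.089 on the log2 scale) with its peak at ZT6.67 ± 1.3 h and was not called (adjusted p = 0.083), and without the ZT04 replicate 2 pool its adjusted p was 0.036 with a log2 value of 0.32, still under the fold limit.

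Footprint and mRNA profiles of each gene were compared in peak time and amplitude, with the TE rhythm above as the test of the difference. The RPF-seq peak of Cirbp minus its RNA-seq peak was -0.19 ± 0.73 h (SE from separate fits; 0.38 h with the covariance of the shared pools), with 0.31 h in replicate 1 and -0.68 h in replicate 2. For Rbm3 it was -1.31 h, with an SE of 0.85 h from separate fits and of 0.46 h with the covariance of the shared pools. The replicates gave -1.79 h and -0.77 h, so the fitted footprint peak was earlier in both. The log2 peak-to-trough of RPF-seq minus that of RNA-seq was -0.11 ± 0.30 for Cirbp and -0.01 ± 0.18 for Rbm3 (SE from separate fits), or ± 0.16 and ± 0.096 with the shared pools. Over the 12 timepoint means, RNA-seq and RPF-seq correlated with r = 0.97 for Cirbp and r = 0.91 for Rbm3, values that share the lysate pools and the daily cycle.

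The difference between Cirbp and Rbm3, read within the same library, changed over the day. Rbm3 was higher than Cirbp in all 24 pools in both assays, on average 4.83-fold in RNA-seq (range 2.33 to 11.1) and 3.03-fold in RPF-seq (range 1.44 to 6.80), on values per length and with the uncertain level of Rbm3. In RNA-seq the ratio of Rbm3 to Cirbp averaged 2.41 at ZT02 and 9.91 at ZT18. In RPF-seq it averaged 1.56 at ZT04 and 5.27 at ZT14. In TE the order was opposite, with Cirbp higher than Rbm3 in all 24 pools.

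The log2 difference Cirbp minus Rbm3 followed a 24-h cosine with a peak-to-trough of 1.82 ± 0.18 in RNA-seq (SE, n = 24; permutation test of the time labels, adjusted p = 3e-05 over 3 tests, its raw p being the smallest the resamples can give) and a peak at ZT5.68. In RPF-seq the peak-to-trough was 1.502 ± 0.18 (permutation test, adjusted p = 4.5e-05) with a peak at ZT5.20. In TE the difference was 0.38 ± 0.16 and did not pass (permutation test, adjusted p = 0.083), except without the ZT04 replicate 2 pool (0.45, adjusted p = 0.024). The fitted peak of Rbm3 came 6.02 ± 0.75 h after that of Cirbp in RNA-seq and 4.91 ± 0.83 h after it in RPF-seq (SE). This gap depends on the shape fitted: with a 12-h component added to the curve, which did not pass the test for either gene, it was 2.35 h in RNA-seq and 1.65 h in RPF-seq. The highest timepoint means were at ZT10 for Cirbp and ZT12 for Rbm3 in RNA-seq, and at ZT10 for both in RPF-seq. The RNA-seq fold of Cirbp exceeded that of Rbm3 by 0.83 ± 0.24 on the log2 scale. Over the 12 timepoint means of RNA-seq the pair correlated with r = 0.18, and with r = 0.72 when Rbm3 was read 6 h later than Cirbp, both from the same libraries.

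**Figure D3:**
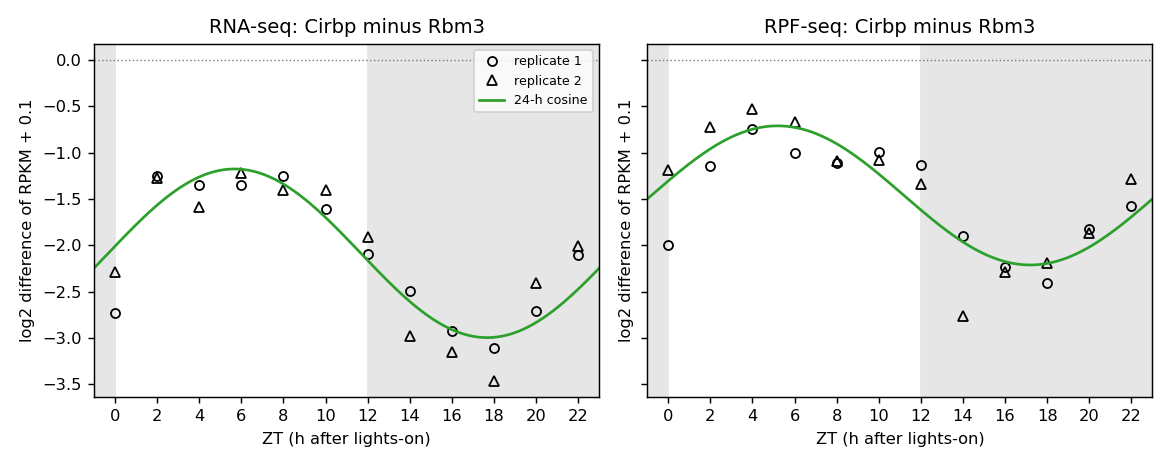
Log2 of Cirbp minus log2 of Rbm3 (RPKM + 0.1) in each pool against ZT in hours for RNA-seq (left) and RPF-seq (right), with circles and triangles for the replicates, the fitted 24-h cosine in green and grey for darkness. All points lie below 0, and the fitted difference peaks at ZT5.68 in RNA-seq and at ZT5.20 in RPF-seq.

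The heat shock chaperones and HSF factors, which respond to temperature in the opposite direction, were described by a list of 22 genes, all of which were tested. Of these, 12 were called rhythmic in RNA-seq and 10 in RPF-seq, against 10.2% and 7.58% of all genes. Every called gene of the list had its peak in the dark phase, between ZT15.4 and ZT21.2 in RNA-seq and between ZT15.5 and ZT21.0 in RPF-seq. The share of all rhythmic genes that peaked in the dark was not counted, so dark peaks are not shown to be particular to this list. The median fitted fold of the list was 1.55 in RNA-seq and 1.53 in RPF-seq, against 1.20 and 1.18 over all genes. By the FDR alone, 18 passed in RNA-seq and 14 in RPF-seq, where 48.6% and 30.9% of all genes did. In TE none was called by limma, and 1 passed the FDR alone, as 17.1% of all genes did. An unadjusted p under 0.05 was found for 6 of the list and for at least that 17.1% of all genes. The highest RNA-seq folds belonged to Hspa1b (2.62, peak ZT15.4, adjusted p = 0.026) and Hspa1a (2.29, peak ZT16.03, adjusted p = 0.030), the inducible Hsp70 genes, which are near-identical copies and so uncertain. Both calls were lost without replicate 1 (adjusted p = 0.15 and 0.19) and without replicate 2 (adjusted p = 0.24 and 0.23), and that of Hspa1a also without the ZT04 replicate 2 pool (adjusted p = 0.052). Chordc1, a co-chaperone of Hsp90, followed with 2.09 (peak ZT19.5, adjusted p = 1.3e-05).

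In RPF-seq the largest called folds of the list were those of Hspa1a (3.00, adjusted p = 0.020), of Hspa8, the constitutive Hsp70 (2.00, peak ZT15.5, adjusted p = 0.0033), and of Hsph1, an Hsp110 nucleotide exchange factor (2.00, peak ZT17.7, adjusted p = 0.0027). Hsf1, the main heat shock transcription factor, averaged 13.9 RPKM in RNA-seq and was not called in either assay (adjusted p = 0.19 and 0.35). The summed RNA-seq level of the list ranged from 3352 to 5164 RPKM (median 3942) in the light and from 3775 to 6044 (median 5199) in the dark. The RPF-seq calls of Hspa1a and Hsph1 were also lost without either replicate. That of Hspa8 was lost without replicate 1 (adjusted p = 0.19, limma). With replicate 1 left out, 7 of the list were called in RNA-seq and 4 in RPF-seq, and with replicate 2 left out, 8 and 5.

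**Figure D4:**
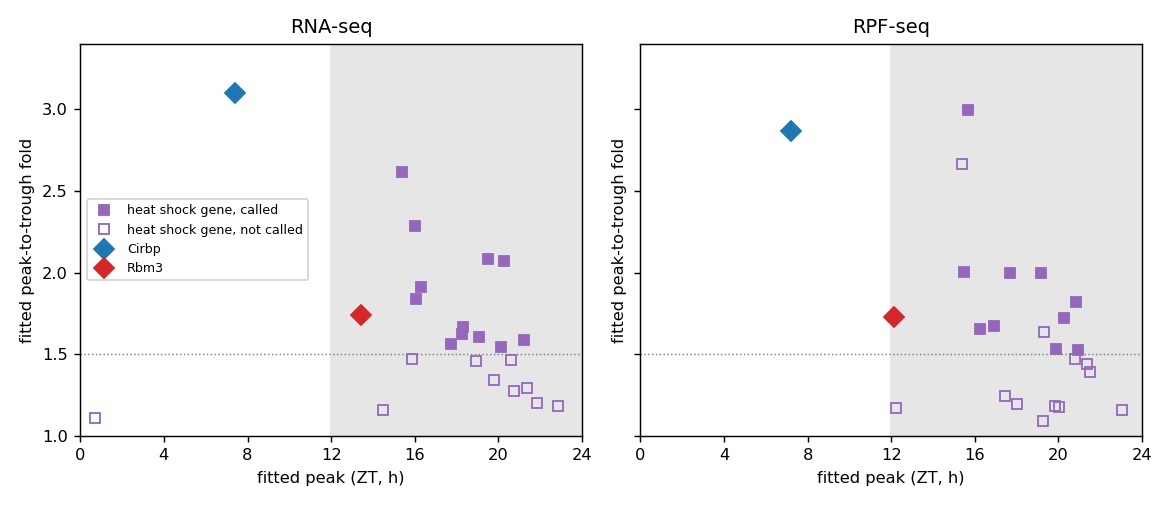
Fitted peak time (ZT, h) against fitted peak-to-trough fold of the 22 heat shock genes (squares, filled where called) and of Cirbp and Rbm3 (diamonds) in RNA-seq (left) and RPF-seq (right), with grey for darkness and the dotted line at the fold limit of 1.5. All called heat shock genes peak in the dark phase, Cirbp peaks in the light at about ZT7, and Rbm3 peaks near lights-off.

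Of 9 known regulators of the cold-inducible genes, 7 were tested. In RNA-seq none was called by limma, where 10.2% of all genes were. There, 4 had an unadjusted p under 0.05, as did at least the 48.6% of all genes that passed the FDR alone. In RPF-seq 1 was called, where 7.58% of all genes were. With so few genes the counts called lie near the shares over all genes. By the FDR alone, 3 passed in RNA-seq and 5 in RPF-seq, against 48.6% and 30.9% of all genes. The gene called in RPF-seq was Clk4, a splicing kinase that senses temperature, with a footprint fold of 1.64 (peak ZT17.6, adjusted p = 0.014). This call was lost without replicate 1. Sp1, the factor that binds the mild cold response element shown above, had an RNA-seq fold of 1.06 (adjusted p = 0.46), and Trpv4, a warmth-gated cation channel, had one of 1.298 (adjusted p = 0.0071), under the fold limit.

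Of 4 mRNAs known to be bound by CIRBP or RBM3, 1 was called in each assay, against 10.2% and 7.58% of all genes. By the FDR alone, 3 passed in RNA-seq and 2 in RPF-seq, against 48.6% and 30.9% of all genes. The gene called was Clock, with a fold of 1.64 in RNA-seq (peak ZT21.6, adjusted p = 2.0e-07) and 1.60 in RPF-seq (peak ZT22.7, adjusted p = 4.4e-04), a footprint call that was lost without replicate 1 (adjusted p = 0.11). None of the 4 had a called TE rhythm by limma, where 3.74% of all genes did, and none had an unadjusted p under 0.05. Among the cold shock domain proteins, which bind nucleic acids through another fold, 5 of 8 were tested. None was called in RNA-seq or RPF-seq, against 10.2% and 7.58% of all genes. By the FDR alone, 2 passed in RNA-seq and 1 in RPF-seq, against 48.6% and 30.9% of all genes. The same numbers had an unadjusted p under 0.05. Of the 3 closest relatives with the same domain plan, Rbmx and Rbmxl1 were tested, with RNA-seq folds of 1.11 and 1.24. Neither was called by limma in RNA-seq or RPF-seq, against 10.2% and 7.58% of all genes. Without the fold limit, Rbmxl1 passed the FDR in RNA-seq (adjusted p = 0.0048), where 48.6% of all genes did. Both passed it in RPF-seq (adjusted p = 0.019 for Rbmx and 0.018 for Rbmxl1, limma), where 30.9% did.

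The genes most like Cirbp in shape over the 12 RNA-seq timepoint means were Renbp (r = 0.96), Tk2 (0.94), Dyx1c1 (0.94), Gpcpd1 (0.94) and Hist1h1c (0.93). Their own folds ranged from 1.23 to 2.23, all below the 3.10 of Cirbp. In RPF-seq they were Morn4 (r = 0.97), Dcaf8, Btbd2, Wipi1 and Zc3h6 (0.95 each), and no gene was in both groups of 5. The genes most like Rbm3 in RNA-seq were Galnt11, Tspan4 and Decr2 (r = 0.93 each), Cry2 and Bbox1 (0.91 each), and in RPF-seq Dhtkd1 (r = 0.94), Paox (0.93), Slc7a9 (0.91), Per3 and Pfkfb3 (0.89 each). Cry2 and Per3 are clock repressors, with a Cry2 peak at ZT13.2 in RNA-seq and a Per3 peak at ZT11.5 in RPF-seq. Rbm3 ranked only 4930th among the genes most like Cirbp in RNA-seq. These r values rest on 12 points that share libraries and the daily cycle, and they carry no test.

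Markers of several cell types had different median levels in the light and the dark, in both directions, with ranges that overlapped. The fat marker Adipoq, the only 1 of 3 fat markers listed in RNA-seq, ranged from 0.30 to 3.98 RPKM (median 1.19) in the light and from 0.13 to 2.60 (median 0.61) in the dark, with a peak at ZT3.95. In RPF-seq all 3 fat markers were listed, and their sum ranged from 2.52 to 13.9 RPKM in the light and from 0.58 to 4.36 in the dark. The 2 podocyte markers summed to 25.1 to 39.7 RPKM in the light and to 17.1 to 36.3 in the dark in RNA-seq, and the 2 fibroblast markers to 37.3 to 50.01 and to 29.95 to 41.1. The sum of the collecting duct markers went the other way, with medians of 125.7 RPKM in the light and 157.3 in the dark in RNA-seq. That sum is mostly Aqp2 (mean 123.7 RPKM), with a light minus dark log2 difference of -0.36. Slc4a1 (mean 16.7 RPKM) had a difference of 0.23, toward the light. The loop of Henle and distal tubule markers had median sums of 3189 RPKM in the light and 3675 in the dark. The hepatocyte markers had median sums of 36.6 RPKM in the light and 67.1 in the dark in RPF-seq. In RNA-seq their median sums had the opposite order, 21.6 RPKM in the light and 14.6 in the dark. Their TE rhythms were called, with folds of 3.31 (Alb, peak ZT13.9) and 3.75 (Apoa1, peak ZT14.3). The 3 proximal tubule markers had nearly the same median sum in both phases, 3845 and 3842 RPKM in RNA-seq. The part of these differences, and of the larger scaled library sizes in the light, in the profiles of Cirbp and Rbm3 was not tested. In whole kidney, fewer cells of a type and less RNA per cell cannot be told apart.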

How the data were processed

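RNA-seq and RPF-seq libraries of 24 kidney lysate pools (48 libraries) were used. The authors trimmed reads (cutadapt), mapped them with Bowtie2 2.2.1 and TopHat2 2.0.11 (GRCm38.p2), took transcript models from Cufflinks 2.2.1, normalised with edgeR and deposited RPKM per gene and library, with low genes left out and no correction for mappable length. RPKM scaling hides changes in total RNA per cell. Here, 12373 of 12423 gene IDs were paired with symbols. Genes with a median of at least 0.5 RPKM in both assays were tested on log2(RPKM + 0.1) with limma 3.58.1 (R 4.3.3, trended eBayes, Benjamini-Hochberg over all genes), a moderated test standing in for the study's AIC choice. TE pairs the RNA and RPF libraries of a pool (r of their replicate differences 0.11 to 0.45). The limma p-values rest on the residual spread of each fit. It holds the spread between pools of 2 mice, which may include that between the daily cycles. In the cosine and light-dark fits it also holds the change between timepoints that the fit leaves out. The difference between Cirbp and Rbm3 was tested with 100000 permutations. Scaled library sizes and the reads behind each value were recovered from the steps between RPKM values. Counting errors cover sampling of reads only. Tests were tested on simulated data. Cirbp, Rbm3 and the gene lists were chosen with earlier results of these data known. Genes named are both members, the called list genes with the largest folds (at most 3 per assay) and the 5 genes with the highest r. Hsf1, Sp1, Trpv4, Rbmx and Rbmxl1 were named after their values were seen. Clock genes and cell type markers served as checks. Alternatives were other pseudocounts, RPKM minimums and FDR, quantile normalisation, AIC, a replicate block, a 2-h shift of the phases, and leaving out replicates or the ZT04 replicate 2 pool. The SE with the covariance of the shared pools, which includes shared departures from the cosine, was added after seeing the data. Sequences are from RefSeq (GRCm38.p6) and GENCODE vM21.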

Additional observations from a re-analysis of the deposited data

Results flagged for a closer look

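The light minus dark difference of Rbm3 differed between the assays. The log2 difference was -0.37 in RNA-seq and -0.17 in RPF-seq, and the interaction of assay and phase, which is the light minus dark difference of TE, was 0.20 ± 0.061 (SE, 24 pools; adjusted p = 0.036, limma). TE was higher in the light at 4.48% of all genes by the FDR alone. The adjusted p ranged from 0.016 to 0.67 over the alternatives, and was 0.071 with ZT00 and ZT12 left out and 0.36 with the phases shifted by 2 h.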

How the results depend on the processing

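Of 275 alternative values for Cirbp and Rbm3, 257 kept their sign and counted as unchanged, and 9 changed sign, none of them called in either setting. For tested values, unchanged meant the same side of the call, so crossing the FDR while under the fold limit did not count as a change. Values without a call were judged by sign alone or by a shift within their SE or SD. Some, refitted only for their SE, could not change. The light minus dark difference of Cirbp in TE ranged from -0.0059 to 0.053 with single replicate series or pools left out, and was -0.051 with ZT00 and ZT12 left out and -0.11 with the phases shifted by 2 h, which gave 0.086 for Rbm3 in RPF-seq. The step of Rbm3 from ZT00 to ZT02 ranged from -0.41 (without replicate 2) to 0.0037 (without replicate 1) in RNA-seq and from -0.60 to 0.20 in RPF-seq; the cause was not tested. The 24-h rhythms of both genes were called in RNA-seq and RPF-seq under every alternative run, with log2 peak-to-trough values of 1.48 to 1.79 and 1.48 to 1.63 for Cirbp and of 0.79 to 0.84 and 0.65 to 0.93 for Rbm3. The light minus dark difference of Cirbp was 0.55 to 0.82 in RNA-seq and 0.55 to 0.87 in RPF-seq when a replicate series or the ZT04 replicate 2 pool was left out; the call was lost with either series in both assays (fewer samples), and in RPF-seq without the ZT04 replicate 2 pool. The TE difference of Cirbp and Rbm3 over the day gave 0.45 to 0.53 in these settings and passed only without that pool; the cause was not tested. The replicate numbers did not pair the timepoints (mean r of replicate differences 0.03 in RNA-seq, range -0.18 to 0.48), and with a replicate block 1 step of Cirbp in RNA-seq was called in place of 3, the steps into and out of ZT00 having an adjusted p of 0.057 and 0.052; the block changed no other call of the genes named. The number of rhythmic genes was 781 in RNA-seq and 590 in RPF-seq with a pseudocount of 1, which shrinks the folds of low genes. Leaving out a replicate series or that pool gave 722 to 1430 genes in RNA-seq, 370 to 909 in RPF-seq and 0 to 404 in TE. In TE, the 0 without replicate 1 (limma) compares with 1858 genes at an unadjusted p under 0.05 and 1154 by AIC. AIC with all pools gave 727 genes and an FDR of 0.01 gave 215. Low depth limits Cirbp mRNA most, at 43 reads in the thinnest library.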
